A study of Mus musculus with 98 samples.

Results

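The libraries described here are those of mouse primary hippocampal neurons that carried the PhP.eB-vector virus and were exposed to hAD-tau, with and without stimulation, at day 21 in vitro. They were chosen by their column names: the 3 stimulated columns marked AD and Mock in one deposited table against the 3 unstimulated columns with the same marks in another. These are 6 of the 98 samples of the series. The same difference in 6 vector libraries given PBS in place of tau was the reference for what tau changed.

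PhP.eB-vector is the control for a virus that raises ACSS2, a nuclear and cytosolic enzyme that makes acetyl-CoA from acetate. All 4 groups used here received that vector on day 5 for 48 hours, were washed on day 7 and were then given hAD-tau or PBS. In this field hAD-tau is tau enriched from the brains of people with Alzheimer's disease. The groups were stimulated vector neurons with hAD-tau, resting vector neurons with hAD-tau, stimulated vector neurons with PBS and resting vector neurons with PBS, with 3 libraries in each. The labels give the CD1 strain and embryonic origin for the resting libraries and give neither for the stimulated ones. They name no stimulus and no duration. The treatment label of the resting hAD-tau libraries reads PBS while their titles read hAD-tau, and the titles were followed. Nothing in the labels says that replicates came from separate cultures, so the p-values measure the spread between these libraries, which may be technical. Stimulated and resting libraries lie in separate tables, so stimulation and table cannot be told apart in any stimulated-resting difference. A gene offset between the tables that is the same with tau and with PBS drops out of the tau-PBS comparison of those differences.

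Neuronal activity lets calcium in through receptors and channels, and calcium-driven kinases then switch on a rapid set of genes without new protein synthesis. The first products are transcription factors of the Fos, Jun, Egr, Nr4a and Npas4 groups. They are followed by effectors at the synapse, such as Arc, and by phosphatases and other inhibitors that limit the same signals. In hippocampal neurons these genes are known for their part in lasting synaptic change.

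Each of the 12 libraries held between 17386121 and 39985460 counts. Neuronal markers were high in all of them: Map2, a dendritic microtubule protein, lay at 1266, 1409 and 1351 CPM (counts scaled to the library's total) in the stimulated tau libraries and at 1047, 1046 and 1309 CPM in the resting ones. The cultures were not neurons alone, since the astrocyte filament gene Gfap reached 691 to 2023 CPM in stimulated and 1403 to 2912 CPM in resting tau libraries. Cldn5, an endothelial marker, did not pass the filter on low counts, and the microglial gene C1qa lay at 0.0375 to 3.57 CPM across the 6 tau libraries. The third resting PBS library stood apart, with Gfap at 14240 CPM against 4966 and 2250 CPM in the other resting PBS libraries. The second resting tau library differed from its group too. Its neuronal marker Rbfox3 lay at 117 CPM against 230 and 223 CPM. The ribosomal RNA gene Rn45s took 4.1% of its counts against 0.418% and 0.517%. In the second resting PBS library Rn45s took 11% against 0.887% and 0.561%.

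In tau-exposed neurons, stimulation came with a steep rise of a small set of genes led by activity-regulated transcription factors. Of 14808 genes tested, 170 were higher in the stimulated libraries (1.15% of all tested) and 10 were lower (0.0675%), at an adjusted p under 0.05 in edgeR's quasi-likelihood test. Of the 170, 113 rose by at least 2-fold (0.763% of all tested), 58 by a log2 fold change of at least 2 and 19 by at least 4. Their median log2 fold change was 1.41 and their range 0.42 to 7.23. In all 170 the lowest stimulated library lay above the highest resting one, an order that 9.29% of all genes tested showed. Leaving out 1 library at a time brought the number of genes called to between 106 and 204. The fewest came without the first resting tau library (106), the second resting tau library (109) or the second stimulated tau library (110), and 94 of the 170 were called higher in every one of the 12 fits.

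Start sites are shown first for the rapid transcription factors, because this group carried the largest changes. These are the 250 bases before the annotated start of the 5 genes with the largest log2 fold changes among those with a single RefSeq entry (GRCm38.p6), each 5′ to 3′ on the gene's own strand. Capitals mark TGACG or its reverse complement, the core of the cyclic AMP response element TGACGTCA, and TATAAA on either strand, a TATA box core. Fosb, a Fos family subunit of AP-1, at chr7:19310046-19310295 on the minus strand, and Klf4, a zinc finger factor, at chr4:55532476-55532725 on the minus strand, each hold 1 core site. Npas4, a neuron-specific basic helix-loop-helix factor, at chr19:4989972-4990221 on the minus strand, holds 2, at 179 to 175 and 169 to 165 bases before the start. Fos, the other main Fos subunit, at chr12:85473640-85473889 on the plus strand, holds 2 core sites, at 129 to 125 and 66 to 62 bases before the start, and a TATAAA at 33 to 28. Nr4a2, an orphan nuclear receptor, at chr2:57124004-57124253 on the minus strand, holds 4 core sites and TATAAA on the other strand.
Fosb: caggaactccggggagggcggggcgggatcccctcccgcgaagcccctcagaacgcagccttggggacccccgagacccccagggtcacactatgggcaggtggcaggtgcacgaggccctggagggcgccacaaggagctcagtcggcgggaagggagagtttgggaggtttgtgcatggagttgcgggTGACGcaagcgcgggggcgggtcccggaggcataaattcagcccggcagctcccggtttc
Klf4: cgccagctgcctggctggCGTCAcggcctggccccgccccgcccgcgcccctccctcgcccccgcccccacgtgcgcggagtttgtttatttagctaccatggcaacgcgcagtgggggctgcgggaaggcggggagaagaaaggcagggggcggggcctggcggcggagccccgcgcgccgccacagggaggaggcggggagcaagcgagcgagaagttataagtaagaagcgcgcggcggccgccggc
Npas4: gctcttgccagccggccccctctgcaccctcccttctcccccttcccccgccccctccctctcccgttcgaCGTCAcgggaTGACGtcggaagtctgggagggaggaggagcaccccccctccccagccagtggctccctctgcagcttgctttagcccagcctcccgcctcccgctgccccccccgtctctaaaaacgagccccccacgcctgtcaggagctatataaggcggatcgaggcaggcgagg
Fos: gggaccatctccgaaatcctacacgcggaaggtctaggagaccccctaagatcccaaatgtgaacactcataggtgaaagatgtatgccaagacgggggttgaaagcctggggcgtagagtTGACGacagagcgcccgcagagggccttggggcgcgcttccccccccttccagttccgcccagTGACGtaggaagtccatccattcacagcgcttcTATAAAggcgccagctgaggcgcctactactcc
Nr4a2: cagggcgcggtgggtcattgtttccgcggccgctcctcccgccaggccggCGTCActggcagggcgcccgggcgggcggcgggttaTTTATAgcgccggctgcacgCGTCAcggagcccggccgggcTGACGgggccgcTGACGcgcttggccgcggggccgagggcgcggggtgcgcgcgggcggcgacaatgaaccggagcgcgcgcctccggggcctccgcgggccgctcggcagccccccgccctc

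The core site TGACG was present on either strand in the 250 bases before a start in 16 of the 20 rapid transcription factors with an entry (80.0%). Among the genes called higher it was present in 66 of the 136 with an entry (48.5%), and among all genes tested in 3454 of 11679 (29.6%). The full element TGACGTCA, which contains that core, was found in 14 of those 136 genes (10.3%) and in 2.98% of the genes tested. The AP-1 element TGANTCA was found in 4 of the 136 (2.94%) and in 5.41% of the genes tested, and the CArG box, which serum response factor binds, in 3 (2.21%) and in 1.35%. Where a gene had several annotated starts, a match at any of them counted. These shares describe letters in a window and are not measured binding.

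The rapid transcription factor list held 25 genes, all tested. With tau 20 of them rose (80%) and none fell, against 1.15% and 0.0675% of all genes tested. Their median log2 fold change was 3.98 against -0.02 over all genes tested. Fosb lay at 788, 744 and 562 CPM in the stimulated tau libraries and at 5.62, 2.20 and 5.91 CPM in the resting ones. Its log2 fold change was 7.23 ± 0.47 (SE), the largest of the 170, with an adjusted p of 6.97e-06 in edgeR. Npas4 lay at 893, 757 and 975 CPM against 5.21, 2.91 and 23.9 CPM, a log2 fold change of 6.36 ± 0.65 (SE). Fos lay at 1632, 1417 and 1388 CPM against 22.2, 27.1 and 36.7 CPM, a log2 fold change of 5.69 ± 0.39 (SE). In these 3 genes every stimulated library was more than 10 times as high as any resting one, and the third resting library was the highest of its group in each.

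The remaining rises in that list covered each family of early factors. Among the Jun subunits, which pair with Fos proteins in AP-1, Junb rose by a log2 fold change of 4.54 ± 0.32 (SE) and Jun by 2.19 ± 0.20. Egr2 and Egr4, zinc finger factors, rose by 5.77 and 4.42. Egr1 rose by 3.60 from resting values of 60.7, 39.7 and 145 CPM to 1045, 991 and 932 CPM. Egr3 had values of 401, 389 and 230 CPM against 70.2, 26.1 and 104 CPM, which did not overlap, but the rise of 2.34 ± 0.52 just missed the threshold (adjusted p = 0.0565, edgeR). The nuclear receptors Nr4a1, Nr4a2 and Nr4a3 rose by 4.90, 4.99 and 1.97. Nr4a3 lay at 675, 670 and 642 CPM when stimulated and at 215, 96.8 and 196 CPM at rest. The stress-linked factor Atf3 rose by 4.70 and the small Maf protein gene Maff by 4.59. Klf6 rose by 1.05, while Klf2 (1.23 ± 0.31 SE), Ier5 (0.73 ± 0.26), Crem (0.54 ± 0.21) and Klf10 (0.26 ± 0.20) did not pass the test. The stimulated libraries all lay above the resting ones in 24 of the 25 genes, Klf10 being the exception. Over all genes tested 9.29% showed that order.

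**Figure D1:**
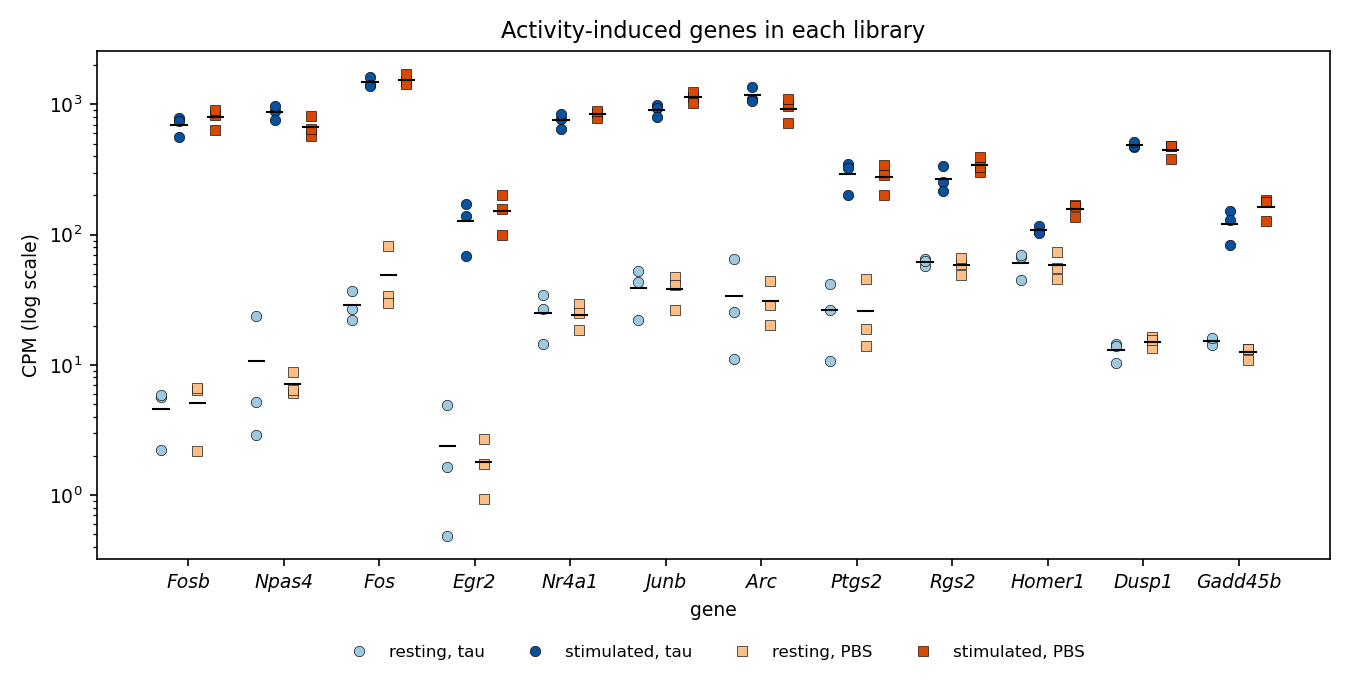
CPM (log axis) of 12 activity-induced genes in each of the 12 libraries, with circles for tau and squares for PBS, pale for resting and dark for stimulated, and short bars for the mean of 3 libraries. Stimulated and resting libraries are separate in every gene shown. When stimulated, tau and PBS points lie close together for Fos, at 1388 to 1632 CPM with tau and 1439 to 1719 CPM with PBS. For Homer1 they do not overlap, at 102 to 116 CPM with tau and 137 to 170 CPM with PBS.

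The effector list, made of synaptic, secreted and signalling products of activity, held 31 genes. With tau 9 of them rose (29%) and none fell, against 1.15% and 0.0675% of all genes tested. The list's median log2 fold change was 0.82. Arc, which drives removal of AMPA receptors from the synapse, lay at 1368, 1094 and 1062 CPM in stimulated and at 25.5, 11 and 65.2 CPM in resting tau libraries. Its log2 fold change was 5.11 ± 0.56 (SE), with an adjusted p of 0.000341 in edgeR. Ptgs2, the inducible cyclooxygenase, rose from 26.3, 10.6 and 41.9 CPM to 350, 200 and 325 CPM, a log2 fold change of 3.47. The second resting library was the lowest for both genes.

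Several effectors act on G protein and kinase signals. Rasd1, a small Ras-like G protein, rose by a log2 fold change of 2.84, Rgs2, which speeds the switching off of Gq, by 2.12, and Plk2, a kinase that weakens synapses after high activity, by 2.05. The adhesion gene Pcdh8 (1.81), the activin subunit gene Inhba (1.46) and the granule protein gene Scg2 (0.98) rose too, as did Tnfaip6 (1.93) at 1.24 to 1.98 CPM in stimulated libraries. Bdnf, the activity-regulated neurotrophin, lay at 240, 203 and 290 CPM against 120, 67.4 and 109 CPM. Those Bdnf groups did not overlap, but the difference of 1.31 ± 0.32 (SE) on the log2 scale did not pass the threshold (adjusted p = 0.0925, edgeR). The same held for Nptx2, a secreted pentraxin that gathers AMPA receptors (1.64 ± 0.37, adjusted p = 0.0618), and for Homer1, a postsynaptic scaffold gene (0.82 ± 0.19, adjusted p = 0.0731). Nrgn, Rheb, Mdm2 and Lingo1 lay between -0.18 and 0.12.

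Feedback inhibitors formed the other list in which many members moved. Of 22 genes 11 rose (50%) and none fell, against 1.15% and 0.0675% of all genes tested. The list's median log2 fold change was 1.26. Dusp1, a phosphatase that switches off MAP kinases in the nucleus, lay at 467, 478 and 515 CPM against 14.5, 10.3 and 13.9 CPM. The rise, 5.24 ± 0.17 (SE) on the log2 scale, had the smallest adjusted p of all genes tested (1.81e-08, edgeR). Dusp1 shares exonic bases with Ergic1 on the opposite strand, and the sources used here do not say whether counting used strand. Dusp6, which acts on ERK in the cytoplasm, rose by 3.07, and Dusp5, which acts on nuclear ERK, by 1.93. Sik1, a salt-inducible kinase that restrains CREB coactivators, rose by 3.41. Gadd45g and Gadd45b, stress and activity genes, rose by 3.62 and 2.99. Errfi1, an inhibitor of the EGF receptor, rose by 2.81, Trib1 by 2.12 and Rgs4 by 1.55. Spry1 and Spry2, which dampen receptor tyrosine kinase signals, rose by 1.35 and 1.18, whereas Spry4 (0.56 ± 0.28 SE) and the 3 Spred genes (0.29 to 0.31) did not pass. Dusp8 and Dusp14 did not pass either, at 0.38 and 0.74.

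Few genes upstream of this programme or of the synaptic machinery were called in the tau-exposed neurons. Over all genes tested 1.15% were called higher, so lists of this size would hold few called genes in any case. None of 23 genes for CREB, MEF2, SRF and their cofactors passed the test, nor did any of 15 AMPA, NMDA and kainate receptor subunits, 7 metabotropic glutamate receptors, 12 GABA-A receptor subunits, 28 potassium channels or 29 presynaptic genes. The medians of those lists were 0.14, 0.14, 0.00, 0.11, 0.22 and 0.11. In the same order 20, 14, 4, 10, 23 and 24 of their estimates lay above 0. Over all genes tested 6932 of 14808 did. Cacna1d, an L-type calcium channel pore subunit, was the 1 of 22 sodium and calcium channel genes to rise (0.61 ± 0.12 SE, 51.5, 48.6 and 50.3 CPM against 33.6, 26.8 and 38.1 CPM). Lrrtm2, a postsynaptic adhesion gene that binds neurexin, was the 1 of 28 in its list (1.12 ± 0.17 SE, 176, 236 and 157 CPM against 88.8, 86.6 and 86.5 CPM). Cacna1d shares exonic bases with Chdh, and Lrrtm2 with Ctnna1, both on the opposite strand.

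No member passed among 27 genes of tau, microtubule proteins and tau kinases or among 18 acetyl-CoA enzymes. Of all genes tested 1.15% were called higher. Mapt, the tau gene itself, lay at 506, 568 and 539 CPM in stimulated and 522, 470 and 480 CPM in resting libraries, a log2 fold change of 0.13 ± 0.11 (SE). Acss2 lay at 53.7, 41.2 and 56.6 CPM against 57.5, 47.2 and 59.1 CPM, a change of -0.11 ± 0.15 (SE). Both groups overlapped in both genes. Acss2 shares exonic bases with its neighbours Ggt7 and Gss on the opposite strand.

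Stress and inflammatory lists held from 0 to 2 called genes each, where 1.15% of all genes tested were called higher. Ppp1r15a, which reverses the block on translation in the integrated stress response, rose by a log2 fold change of 1.98 ± 0.19 (SE) and was the 1 of 21 genes of that list to pass. Dnajb1 (1.10 ± 0.21) and Dnajb4 (0.85 ± 0.11), co-chaperones of Hsp70, were 2 of 16 cytosolic heat shock genes. Cxcl1, a chemokine, was 1 of 12 NF-kB targets and lay at 1.27 to 1.73 CPM in stimulated and 0.366 to 0.385 CPM in resting libraries. Idi1, an enzyme of isoprenoid synthesis, was 1 of 21 sterol genes (0.62 ± 0.13). None passed among 30 glycolysis and HIF genes, 16 NRF2 genes, 17 interferon-stimulated genes, 13 clock genes, 11 neuropeptides or 8 neurotrophin genes. Idi1 and Cacna1d were each below the threshold in most of the 22 alternative fits, being called in 7 and 10 of them.

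**Figure D2:**
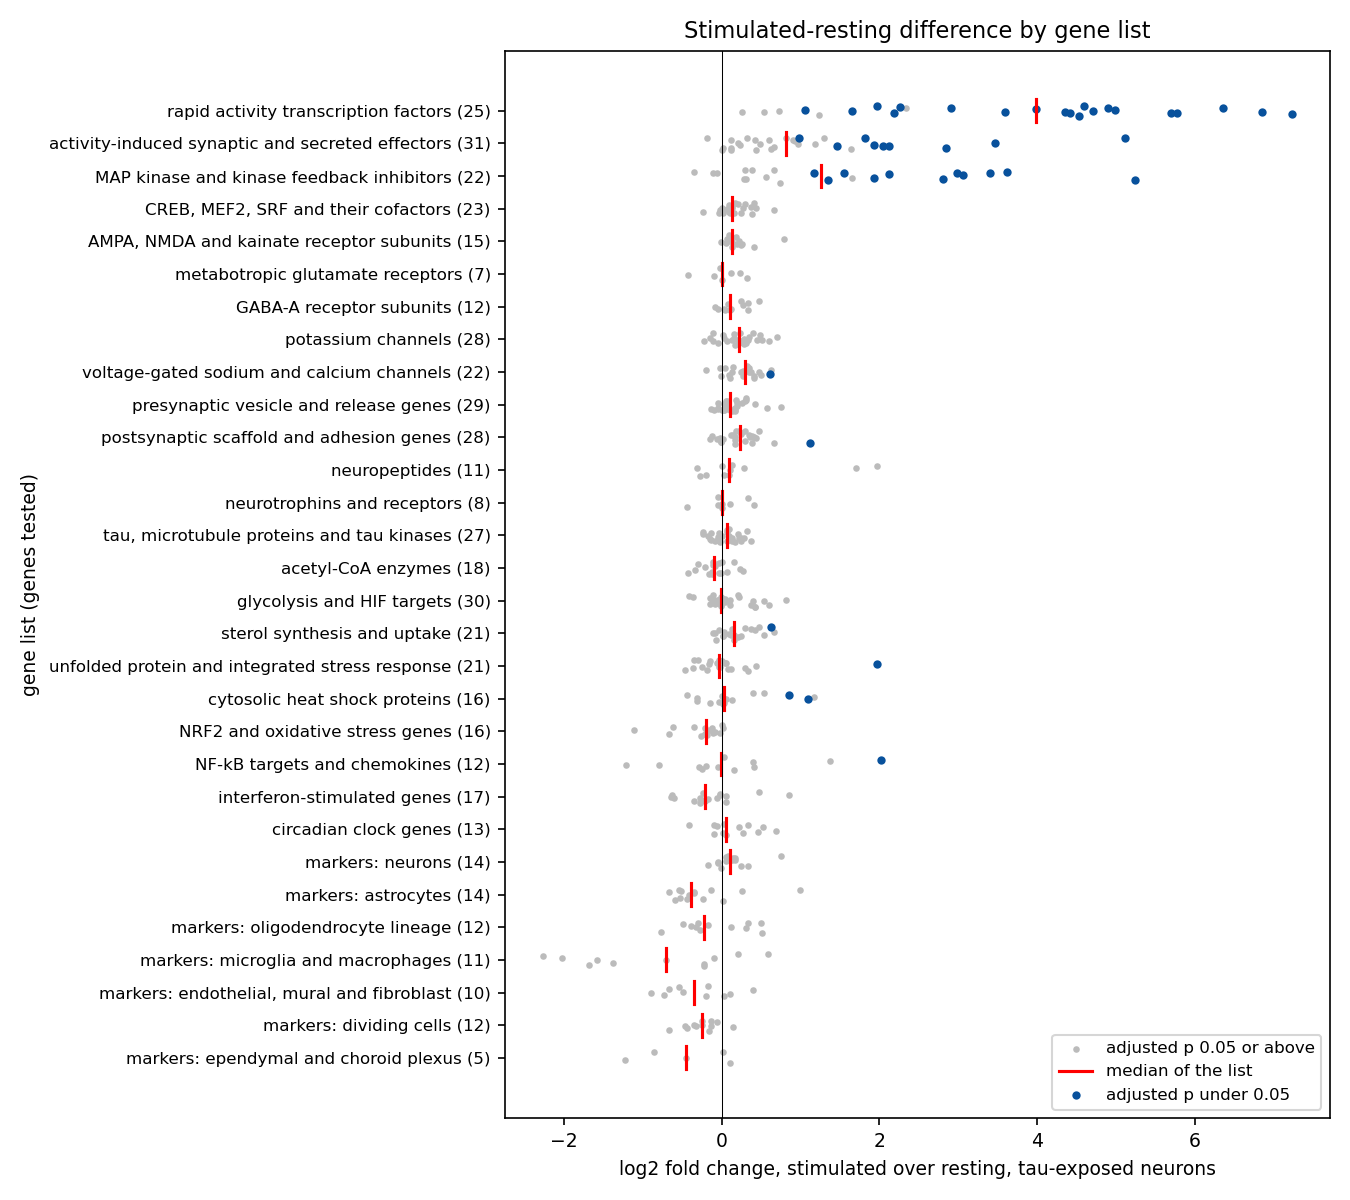
Log2 fold change of stimulated over resting tau-exposed neurons for every tested gene of 30 lists, with dark points for an adjusted p under 0.05, grey points for the others and a red bar for the list median. The first 3 lists have medians of 3.98, 0.82 and 1.26 and members above 2, and in the other lists only Cxcl1 lies above 2, at 2.03.

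Outside these lists stood 123 of the 170 genes that rose. Ccn1, a secreted matrix protein, lay at 599, 504 and 492 CPM against 15.9, 22.5 and 22.8 CPM, a log2 fold change of 4.70 ± 0.43 (SE). Ccn1 was the only unlisted gene among the 10 named genes with the largest rises. Esm1, a secreted proteoglycan, had 55, 89 and 39 counts in the stimulated tau libraries and 0, 0 and 1 counts in the resting ones, so no fold is given. Esm1 was singled out after its values were seen.

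Further genes outside the lists were picked after their values were seen, to show the range of functions. Kcnj2, an inward rectifier potassium channel that the channel list did not hold, rose by a log2 fold change of 2.87 ± 0.38 (SE), at 112, 83.8 and 85.3 CPM against 12.1, 6.6 and 19.6 CPM. Arl4d, a small G protein of the ARF group, rose by 3.51, and Adamts1, a secreted protease, by 2.28. Peg10, an imprinted gene derived from a retrotransposon, rose by 1.76, Btg1, an antiproliferative gene, by 1.65 and Sgk1, a kinase that regulates ion channels, by 1.49. Each of these 6 genes also rose with PBS, at 3.32, 3.95, 1.90, 1.70, 1.71 and 1.45.

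Mir132 and Mir212, hairpin genes of a pair of miRNAs known to be induced by activity, were also among them, and they were singled out after their values were seen. Their mature 3p arms from RefSeq (GRCm38.p6) are shown because they share 1 seed, bases 2 to 8, in capitals. They lie on chromosome 11 at chr11:75173723-75173744 and chr11:75173443-75173464, on the plus strand.
mmu-miR-132-3p: uAACAGUCuacagccauggucg
mmu-miR-212-3p: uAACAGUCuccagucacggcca

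Mir132 had 55, 71 and 45 counts in the stimulated tau libraries and 0, 0 and 3 counts in the resting ones. Mir212 had 40, 77 and 48 counts against 3, 1 and 3. Such reads come from longer RNA over the hairpins and do not measure the mature miRNAs. The neighbouring genes differed. Hic1, a zinc finger repressor gene on the minus strand, rose by a log2 fold change of 2.68 ± 0.34 (SE), at 8.42, 9.95 and 5.04 CPM against 1.42, 0.66 and 1.51 CPM. Ovca2, a hydrolase gene on the minus strand, rose by 2.51 ± 0.12 (SE), at 104, 79.2 and 97.4 CPM against 18.1, 15.1 and 15.8 CPM. Further out, Smg6 (0.22), Dph1 (0.13) and Rtn4rl1 (0.02) did not pass. Ovca2 shares exonic bases with Dph1 on its own strand. In GENCODE its span also overlaps that of a plus-strand noncoding gene that spans both hairpins and is not analysed here. The reads of Ovca2 and those of these neighbours cannot be told apart from gene counts.

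The 8 named genes that fell did so by less than 2-fold. Zfp128, a zinc finger gene, lay at 5.89, 5.75 and 6.08 CPM in stimulated and 11.3, 12 and 11 CPM in resting tau libraries, which is -0.95 ± 0.17 (SE) on the log2 scale, with an adjusted p of 0.0189 in edgeR. The zinc finger genes Zkscan4 (-0.80), Zscan22 (-0.61) and Zfp719 (-0.57) fell too, and so did Thap11 (-0.50), a zinc finger factor of the THAP type. The helicase gene Ddx28 (-0.60), Tmem177 (-0.58) and the mitochondrial ribosomal gene Mrpl51 (-0.46) completed the named genes. In the 22 alternative fits, Zfp128 was called in 15 and Zkscan4 and Ddx28 in 11 each. Thap11, Tmem177 and Mrpl51 were called in 10 each, Zfp719 in 8 and Zscan22 in 5. The rule for naming a fall required that stimulated and resting libraries did not overlap, so this held for all 8. Over all genes tested 7.83% showed that order. A further 2 falls were in genes with no established name, which are given here after their values were seen. Gm12258 changed by -0.68 on the log2 scale. C030016D13Rik had the largest fall of the 10 at a very low level, at 0.054, 0 and 0.0471 CPM in stimulated and 0.487, 0.605 and 0.458 CPM in resting tau libraries, so no fold is given. The number of falls ranged from 1 to 14 when single libraries were left out, against 103 to 190 for the rises.

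The same difference in PBS neurons gave 280 genes higher (1.89% of all tested) and 61 lower (0.412%) by edgeR. Of the 170 genes that rose with tau, 149 also rose with PBS, which is 87.6% of the tau set and 53.2% of the PBS set. All 170 had a positive log2 fold change with PBS, and the change was larger with tau in 75 of them. The median log2 fold change of the 170 was 1.41 with tau and 1.57 with PBS. The unequal numbers changed with single libraries. Without the third resting PBS library 190 genes rose with tau and 190 with PBS, and 139 were shared, and without the second resting PBS library 164 and 169 rose, with 125 shared. Without the first resting PBS library the numbers were 177 and 423, with 151 shared. By list, 22 of 25 rapid transcription factors rose with PBS (median 3.77), 14 of 31 effectors (median 1.07) and 12 of 22 feedback inhibitors (median 1.18). The genes called in only one of the comparisons were not shown to differ between them by that, and the test of the difference follows.

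With tau alone 21 genes were called higher and 3 lower. The rises were small apart from a few. Klf6, a zinc finger factor, lay at 65.4, 78.3 and 95.5 CPM in stimulated and 38.9, 37.6 and 38.8 CPM in resting tau libraries, and at 58.3, 62.5 and 59.4 against 42.9, 37.8 and 47.6 CPM with PBS. Its log2 fold change was 1.05 with tau and 0.49 with PBS. Meg3, an imprinted long noncoding RNA, lay at 522, 498 and 561 CPM against 208, 242 and 384 CPM with tau and at 427, 376 and 364 against 326, 325 and 321 CPM with PBS. The Meg3 change was 0.92 with tau and 0.26 with PBS. Tet2, an enzyme that oxidises 5-methylcytosine, changed by 0.78 and 0.48. Meg3 and Tet2 were picked after their values were seen. With PBS alone 131 genes were called higher, among them Egr3, Bdnf, Nptx2, Homer1 and Crem, which reached log2 fold changes of 3.05, 1.54, 2.17, 1.44 and 0.92 there.

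**Figure D3:**
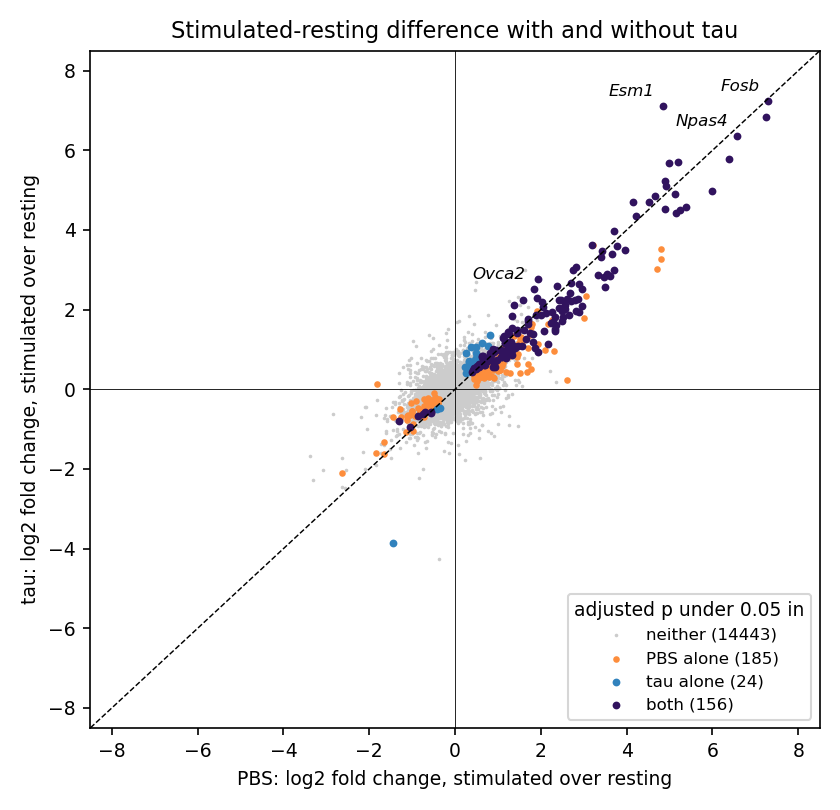
Log2 fold change of stimulated over resting libraries for each of 14808 genes, with PBS on the horizontal and tau on the vertical axis, the dashed line marking equal change. Colours show the 156 genes called in both, 24 with tau alone and 185 with PBS alone, and the called genes lie along the dashed line from Fosb at the top right downwards.

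No gene passed the test of the difference itself, the tau log2 fold change minus the PBS one. At an unadjusted p under 0.05 there were 141 genes (0.952% of those tested), the lowest adjusted p was 1 in edgeR, and DESeq2 also called 0 genes. Removing any 1 library, the third resting PBS library included, left the count at 0. The share of 0.952% lies below the one that a threshold of 0.05 gives on average when no gene differs. Whether this came from a cautious test was not tested. A count of 0 does not show equal responses, and the interval of the difference was wide for many activity genes. For Fosb the tau minus PBS difference was -0.06, with a 95% interval of -1.23 to 1.11, and for Npas4 it was -0.21 (-1.86 to 1.43). Arc gave 0.20 (-1.28 to 1.67) and Fos 0.70 (-0.30 to 1.69), with Fos in resting PBS libraries at 33.8, 29.7 and 82.4 CPM. Tighter intervals were obtained for Dusp1 at 0.34 (-0.10 to 0.79), Ier2 at 0.13 (-0.34 to 0.60), Plk2 at -0.38 (-0.80 to 0.04) and Spry2 at -0.03 (-0.35 to 0.29). For these last genes a difference of 2-fold in the response lay outside the interval.

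In the rapid list 17 of 25 estimates were below 0, with a median of -0.36, and in the effector list 24 of 31, with a median of -0.24. The feedback list had a median of -0.05, and all genes tested had 0.01, with 7614 of 14808 estimates above 0. A lean below 0 was not particular to the activity lists. Neuronal markers had a median of -0.20 with 0 of 14 above 0, and presynaptic genes -0.18 with 3 of 29 above 0. Metabotropic glutamate receptors had -0.25 with 0 of 7 above 0. Other lists had medians above 0, such as NRF2 genes (0.14) and microglial markers (0.56). The most negative of the called rapid genes was Nr4a2 at -1.01 (95% interval -2.01 to -0.02). Its stimulated values were 232, 250 and 101 CPM with tau and 466, 347 and 461 CPM with PBS, which did not overlap, while resting values were 4.67 to 7.01 and 4.66 to 8.93 CPM. Homer1 lay at 105, 116 and 102 CPM with tau and at 170, 137 and 165 CPM with PBS when stimulated (difference -0.61, -1.20 to -0.03). Gadd45b and Errfi1 gave -0.72 and -0.67, and Trib1 and Klf6 lay on the other side at 0.75 and 0.56. These 6 genes had unadjusted p-values of 0.0104 to 0.0464 in edgeR and adjusted values of 1. The third stimulated tau library was the lowest of its group for Nr4a2, Gadd45b and Errfi1.

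**Figure D4:**
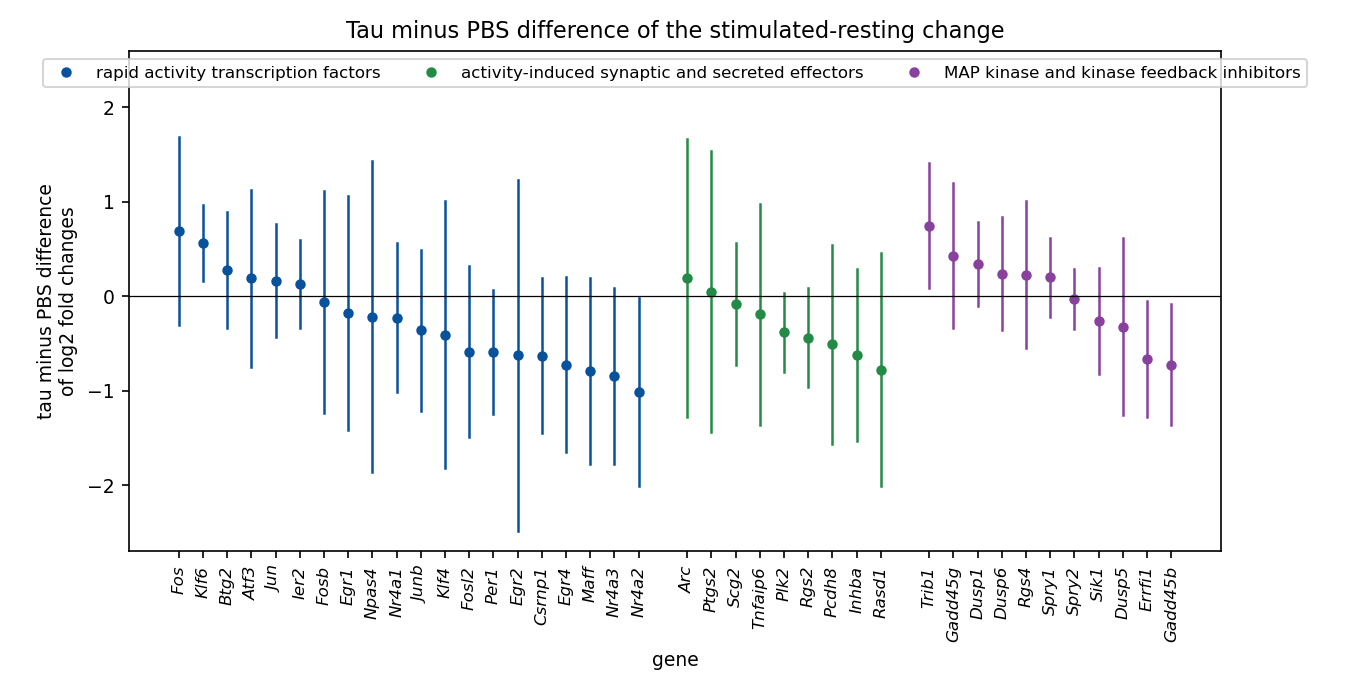
Tau minus PBS difference of the stimulated-resting log2 fold change (points) with 95% intervals (lines) for the genes of the 3 activity lists that rose with tau, coloured by list and ordered within each list. Intervals such as that of Npas4, from -1.86 to 1.43, span 0 in most genes, and Nr4a2, Gadd45b, Errfi1, Klf6 and Trib1 are those that do not.

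The smallest unadjusted p in the test of the difference belonged to Gla, the lysosomal alpha-galactosidase A. It lay at 50.9, 44.6 and 37.3 CPM in stimulated tau libraries and 69.9, 65.3 and 86.5 CPM in stimulated PBS libraries, from 18.7 to 22.6 and 14.5 to 17.7 CPM at rest. The log2 fold change of Gla was 1.14 with tau and 2.16 with PBS, a difference of -1.02 (95% interval -1.48 to -0.56, unadjusted p = 0.000428). Cwc25, a splicing factor gene, differed by -1.0 and Spty2d1, a histone chaperone gene, by -0.92. Both rose in each comparison. Cbx8, a Polycomb subunit gene, and Trmt61b, a mitochondrial RNA methyltransferase gene, differed by -0.88 and -1.25 and rose with PBS only by their own tests. Trmt61b overlaps Spdya on the opposite strand. In the other direction Ovca2 differed by 0.67 (95% interval 0.31 to 1.04, unadjusted p = 0.00179), from 57.1, 58.4 and 63.1 CPM in stimulated PBS libraries. Rnpc3 (1.07), Mycn (0.69) and Atp11b (0.68), a phospholipid flippase gene, followed. Mycn, a growth-linked transcription factor, had stimulated values of 17.6, 22.7 and 21.3 CPM with tau and 8.68, 12.5 and 12.5 CPM with PBS. None of these genes passed after adjustment over all genes (adjusted p = 1, edgeR), and over the alternatives the lowest adjusted p was 0.247, for Gla.

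Tau against PBS within 1 state gave 0 genes by edgeR in stimulated neurons, with 2056 at an unadjusted p under 0.05, and 0 in resting neurons, with 1472. DESeq2 called 332 and 22. In stimulated neurons the rapid list had a median tau minus PBS difference of -0.23 and the effector list -0.12. At rest these medians were 0.04 and 0.08. By edgeR no member of either list passed in either state, since no gene did. Members of the lists among the DESeq2 calls are not given here.

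Summed astrocyte markers lay lower with tau than with PBS in stimulated neurons. Their level over 14 genes was 3455 to 5391 CPM in stimulated tau, 4116 to 6570 in resting tau, 7128 to 10990 in stimulated PBS and 5277 to 22410 CPM in resting PBS libraries. Gfap made up 691 to 2023 CPM of the sum in stimulated tau and 3104 to 5805 CPM in stimulated PBS libraries. The list's median tau minus PBS log2 difference was -0.69 when stimulated and -0.67 at rest, and none of its 14 genes passed. When stimulated, 2 of the 14 estimates lay above 0, Agt at 1.46 and Ntsr2 at 1.41. Between stimulated and resting tau libraries the astrocyte median was -0.38 and the neuronal one 0.11, with 0 of 14 genes called in each. Summed neuronal markers were 9716 to 12150 CPM in stimulated and 7422 to 11290 CPM in resting tau libraries. Microglial markers summed to 38.3 to 53.6 CPM in stimulated and 39.1 to 63.0 CPM in resting tau libraries. With PBS they summed to 29.3 to 31.0 and 28.6 to 42.7 CPM, so that this low sum was higher with tau in stimulated neurons. Cd68 made up 6.64, 6.02 and 19.9 CPM of it in stimulated tau and 2.64, 3.90 and 3.98 CPM in stimulated PBS libraries. Cx3cr1, C1qa and P2ry12 lay at 0.738 CPM or less in all stimulated libraries, and tau and PBS overlapped in each. Of the 11 tested genes 10 had tau minus PBS estimates above 0 when stimulated, P2ry12 being the exception. Endothelial, mural and fibroblast markers lay lower with tau in stimulated neurons, at 259 to 387 CPM with tau and 457 to 802 CPM with PBS. At rest they were at 305 to 528 and 382 to 1763 CPM. None of the 11 and 10 tested genes of these lists passed in any of the 5 comparisons by edgeR. The part of these shifts in the gene changes was not tested, and in bulk libraries fewer cells of a type cannot be told from less RNA per cell.

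**Figure D5:**
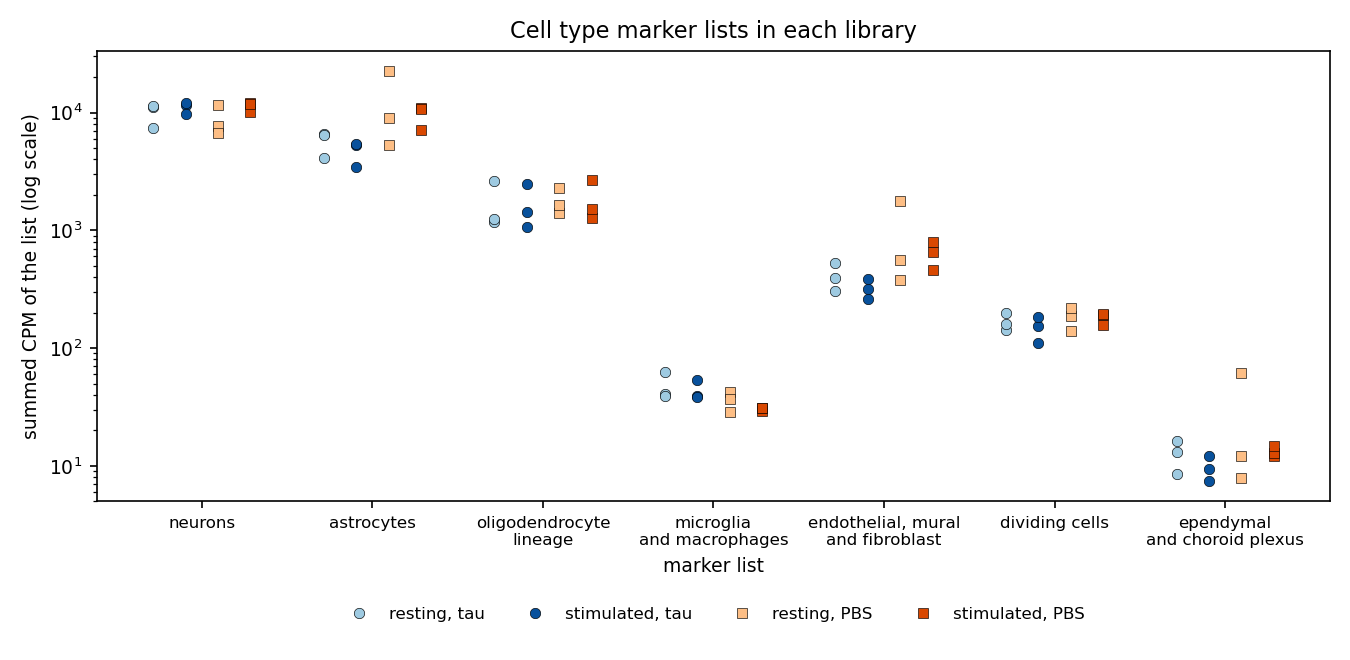
Summed CPM (log axis) of 7 cell type marker lists in each library, with circles for tau and squares for PBS, pale for resting and dark for stimulated. Neuronal sums overlap between all 4 groups, astrocyte sums are lower with tau when stimulated (3455 to 5391 against 7128 to 10990 CPM), and the third resting PBS library is highest at 22410 CPM.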

How the data were processed

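RNA-seq gene counts were read from the 2 vector tables that the authors deposited, as whole-number counts per gene symbol. Per the submitters' processing notes, STAR, featureCounts, HTSeq and DESeq2 were used with mm10; their roles, versions and use of strand are not given in the sources used here. Per the labels' protocols, 130 ng of RNA entered an NEB kit. Both tables hold the same 25239 symbols and were joined on them.

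The 12 day 21 vector libraries, 3 in each of 4 groups, were fitted together with edgeR 4.0.16 in R 4.3.3: filterByExpr on the groups (14808 genes kept), TMM factors, a group-only design and quasi-likelihood tests, two-sided, with Benjamini-Hochberg adjustment over all genes and a threshold of 0.05. SE was the log2 fold change over the root of the F statistic. CPM used TMM-scaled totals. The procedure was tested on simulated counts. Lists and groups were chosen with earlier results of these data known. Named genes were, in each list, up to 4 called genes with the largest change and 2 with the smallest p in the tau-PBS test, and over all genes the 10 highest and 10 lowest called changes where the log2 CPM averaged 1 or more, groups did not overlap and the symbol was not a predicted gene; further genes of the 3 activity lists are described as list members. For the tau-PBS test over all genes, with none called, the 5 with the smallest p in each direction were named.

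Precision is limited by the 3 libraries of a group, since replicates differed far beyond counting noise (chi-square per degree of freedom of 5.68 to 315). Same-numbered stimulated tau and PBS libraries deviated together, with weak correlations of 0.129 to 0.328. Each stimulated tau library correlated best with the PBS library of its own number, but the labels do not state pairing. Stimulated and resting PBS libraries gave 0.0628 to 0.485. The main fit used no pairing, and the replicate block left tau against PBS in stimulated neurons at 0 genes. Gene positions are from GENCODE M21 and sequences from RefSeq, both on GRCm38. Alternatives were DESeq2 1.42.0, other scalings, filters and sets of libraries, a replicate block, single libraries left out and another resting reference. Some items are not reported here.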

Additional observations from a re-analysis of the deposited data

How the results depend on the processing

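The stimulated-resting count with tau, 180 genes, became 399 with DESeq2 and 428 with all 24 day 21 libraries, and 94 with replicate 2 of each group left out, a setting chosen after seeing the data. With PBS the count of 341 became 784, 1079 and 151 in the same settings and 187 with only its 6 libraries. Single libraries left out gave 106 to 204 genes with tau and 161 to 571 with PBS. Same-numbered stimulated and resting tau libraries deviated together unevenly, with correlations of -0.07, 0.62 and 0.17 for replicates 1, 2 and 3. Replicate 2 alone correlated best with its own number. The replicate block lowered edgeR's shared estimate of the spread (biological coefficient of variation) from 0.187 to 0.157. With that block 239 genes were called with tau and 444 with PBS, and the tests of tau stayed at 0. Tau against PBS in stimulated neurons, 0 genes, became 332 with DESeq2, 30 with 24 libraries, 1 with replicate 2 left out, and 0 to 1 without single libraries. At rest it became 22 with DESeq2. The tau-PBS difference of the responses stayed at 0 in all 21 settings that gave a value; with 6 libraries it has none.

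Resting neurons without virus, from another table with other gene models, gave 9232 genes with tau (60.6% of those tested) and 5557 with PBS, and 122 of 169 tau rises were called again and 8 called lower. Among the genes reported here, changes of sign in which either value passed the threshold came from that reference alone; genes near 0 that passed in neither changed sign elsewhere too, such as Camkk1 with tau (-0.29 to 0.29). With tau they were Nfatc3 -0.66, Camkk1 1.17, Grm4 0.98, Gabrg1 -0.93, Slc32a1 0.83, Pdyn 2.44, Nefh 0.93, Gad1 0.97, Cd68 -1.39, Ddx28 0.14 and Zfp719 0.09. With PBS they were Kcnk9 -0.76, Kcnc2 -0.67, Sst -1.30, Mog 3.79, Atp11b -0.98, Gfap 1.92 and Mbp 2.38. The cause was not tested. Upper-quartile scaling moved the PBS split from 280 higher and 61 lower to 225 and 112, and the median of all genes there to -0.11.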
